A study of Mus musculus with 18 samples.

Results

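The arrays of this study represented 252 genes that start below 30 Mb on mouse chromosome 17 (RefSeq gene starts, assembly GRCm38.p6), and 128 of them are described here. Members were chosen by their measured level: the median log2 value over all 18 arrays had to be at least 4, and 40 genes were left out by name. Of those 40, 30 reached the same level; among them are several genes of the t complex, and their values enter below only where it is said that they were put back. A further 84 genes had a median under 4. The members just inside the level limit were Armc12 at a median of 4.02, Tead3 at 4.08 and Tmem217 at 4.15. The genes just outside it were Nthl1 at 3.91 and Caskin1 at 3.83. Armc12, Tead3 and Tmem217 did not pass the filter of the testis comparisons. The limit was set on the level over all groups, so a gene near it can be a member through the group in which it is high, and each count below is over the members that passed the filter of that comparison.

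Flow-sorted spermatocytes came from males 2 months old. Pre-mid-pachytene cells were taken from the strain C57BL/10J (2 arrays) and from the lines C57BL/10J-Ttf+/+T43H (3 arrays) and C57BL/10J-t12+/+T43 (3 arrays), and mid-late-pachytene cells from C57BL/10J (2 arrays). Whole testes, freed of the tunica, came at 15 days of age from Ttf+/+T43H males (3 arrays), t12+/+T43 males (3 arrays) and C57BL/6J males (2 arrays). Both carrier lines, called Ttf and t12 carriers below, hold the T43 translocation (written T43H in one label) opposite a chromosome 17 marked Ttf or t12. No group held the translocation or either marked chromosome alone, so their parts cannot be told apart in a carrier against its control. The testis control is C57BL/6J and the carrier lines are on C57BL/10J, so strain and carrier status cannot be told apart in the testis. The chromosome 17 copies also differ in origin between carriers and controls, and probe sequences were not used here, so less RNA and weaker binding of a variant transcript to its probes cannot be told apart. The series calls its replicates biological and does not say whether animals were pooled.

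Proximal chromosome 17 of the mouse holds the t complex, in which t haplotypes such as t12 differ from the ordinary chromosome by inversions and are passed on by males in distorted ratios. In pachytene, the stage of meiosis at which homologous chromosomes are held together by the synaptonemal complex, chromatin left without a synapsed partner is transcriptionally silenced. The sex chromosomes undergo this in every normal spermatocyte, and stretches of autosomes can undergo it where a rearrangement hinders pairing. The title of the series names an extension of unsynapsed autosomal chromatin, and the comparisons below follow its members along the chromosome through the 7 groups.

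The sorted arrays held the labelled cells, and they also differed in other cell types and in RNA quality. All 13 pachytene markers on the array, of 14 listed, had group means of at least 4 in the 3 pre-mid-pachytene groups. Their mean log2 value was 12.36 to 12.39 in C57BL/10J, 11.52 to 12.57 in Ttf and 11.75 to 11.84 in t12 arrays. The log2 of their summed signal overlapped between these groups, at 17.36 to 17.47, 17.09 to 17.79 and 17.23 to 17.80. The log2 of the summed signal of 12 spermatid markers was 15.70 to 16.28 in C57BL/10J pre-mid arrays, 13.96 to 14.85 in Ttf arrays and 9.18 to 12.47 in t12 arrays, where Acrv1, Spata19 and Oxct2a were below 4. That of the 5 Leydig markers on the array, of 8 listed, ran the other way, at 6.81 to 9.20, 10.15 to 11.58 and 11.20 to 13.84. Sertoli markers (12 of 13 on the array) summed to 13.81 to 13.84, 14.42 to 14.83 and 14.22 to 15.96, with Amh, Gata4, Fshr, Dhh and Trf below 4 in all 3 groups. The Gapdh control probes at the 3′ end exceeded those at the 5′ end by 2.86 to 2.93 log2 units in C57BL/10J pre-mid arrays and by 3.26 to 3.98 in carrier arrays. For the actin control probes this difference was 2.49 to 2.51 in C57BL/10J pre-mid arrays and 3.06 to 4.41 in carrier arrays. The part of these differences in the results on sorted cells was not tested. In the testes the Gapdh probes differed by -0.12 to 0.14 and the actin probes by 1.11 to 1.37. Sertoli markers summed to 16.29 to 16.46 over the 3 groups. Leydig markers summed to 11.37 to 11.67 in C57BL/6J, 9.68 to 11.17 in Ttf and 9.98 to 11.24 in t12 testes, and the mean log2 value of the pachytene markers was 10.55 to 10.72, 10.30 to 10.69 and 9.72 to 10.11. The part of these differences in the testis results was not tested. The pachytene markers Ccna1 and Pgk2 were below 4 in both carrier testes, where in C57BL/6J testes only Ccna1 was. The second Ttf pre-mid array stood apart: over the members it correlated with the other two Ttf arrays at r = 0.922 and 0.876, while those correlated at 0.983.

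RefSeq promoter windows of assembly GRCm38.p6 were at hand for 109 of the 128 members. The stretches before 3 genes are shown because the results below turn on those genes. Hagh encodes glyoxalase II, which clears methylglyoxal products, and its start lies head to head with that of Fahd1, an oxaloacetate decarboxylase of mitochondria; RefSeq also holds a longer Hagh model that spans Fahd1. Tbp encodes the TATA-binding protein of the general transcription machinery, and Telo2 a partner that stabilises large kinases such as ATM, ATR and mTOR. Each is given in lower case, 5′ to 3′ on the strand named, with the CCAAT box in capitals, an element read on both strands as CCAAT or ATTGG. The stretch between the Fahd1 and Hagh starts is chr17:24850303-24850489 on the plus strand, the stretch before Tbp is chr17:15499638-15499887 on the plus strand, and the stretch before Telo2 is chr17:25115968-25116217 on the minus strand.
Hagh and Fahd1: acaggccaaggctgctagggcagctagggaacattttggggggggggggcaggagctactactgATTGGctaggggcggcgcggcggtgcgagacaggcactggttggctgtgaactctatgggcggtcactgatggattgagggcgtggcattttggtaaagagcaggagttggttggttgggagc
Tbp: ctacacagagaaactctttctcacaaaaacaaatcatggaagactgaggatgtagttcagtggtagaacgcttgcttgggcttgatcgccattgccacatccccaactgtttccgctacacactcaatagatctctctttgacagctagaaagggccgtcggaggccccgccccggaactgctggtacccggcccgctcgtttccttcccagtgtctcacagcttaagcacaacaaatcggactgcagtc
Telo2: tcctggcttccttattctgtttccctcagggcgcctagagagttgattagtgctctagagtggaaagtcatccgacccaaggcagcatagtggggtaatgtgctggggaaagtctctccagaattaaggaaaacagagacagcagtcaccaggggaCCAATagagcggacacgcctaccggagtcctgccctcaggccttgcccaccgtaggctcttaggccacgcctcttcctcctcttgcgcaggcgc
The stretch that Hagh and Fahd1 share is 187 bases long, with 7 CpG dinucleotides and 1 CCAAT box on the minus strand. The 250 bases before Telo2 held 1 CCAAT box and 9 CpG, and the 250 bases before Tbp held 11 CpG and no such letters. Over the 109 member windows a CCAAT box on either strand was present in 47 (43.1%), against 39.7% of 7220 windows of the same length for array genes with a median of at least 4 and 37.9% of all windows in the table. The median CpG count was 23 per member window and 22 per window of the array genes with that level. Both values lie near those of other genes of like level, and a match is a description of letters, not a site.

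To follow the region as a whole, each array was given a member level, the mean log2 value of the 128 members minus the mean of 7711 genes of like level on autosomes other than 16 and 17. In pre-mid-pachytene cells this level was -0.61 and -0.58 in the C57BL/10J arrays, -1.09, -0.38 and -1.27 in the Ttf arrays, and -1.31, -1.23 and -1.21 in the t12 arrays. All 3 t12 arrays lay below both controls, while the second Ttf array lay above both controls and the other two below. The group means were -0.60 ± 0.02 (SD, n = 2) for C57BL/10J, -0.92 ± 0.47 (SD, n = 3) for Ttf carriers and -1.25 ± 0.05 (SD, n = 3) for t12 carriers. In the testes the level was -0.43 ± 0.02 (SD, n = 2) in C57BL/6J, -0.68 ± 0.03 (SD, n = 3) in Ttf and -0.68 ± 0.03 (SD, n = 3) in t12 males, with both carrier groups clear of the control and overlapping each other. None of 7 exact two-sided permutation tests over arrays passed, with adjusted p from 0.47 to 1.0, and the design allowed no p below 0.1 with 3 arrays against 3, 0.2 with 3 against 2 and 0.33 with 2 against 2. The t12 minus C57BL/10J difference in sorted cells was -0.65, and the carrier minus C57BL/6J differences in the testes were -0.25 for both lines. The Ttf minus C57BL/10J difference rested on single arrays, since it was -0.32 with all, -0.58 without the second Ttf array and -0.14 without the third. In bulk samples, fewer cells of a type and less RNA per cell cannot be told apart.

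**Figure D1:**
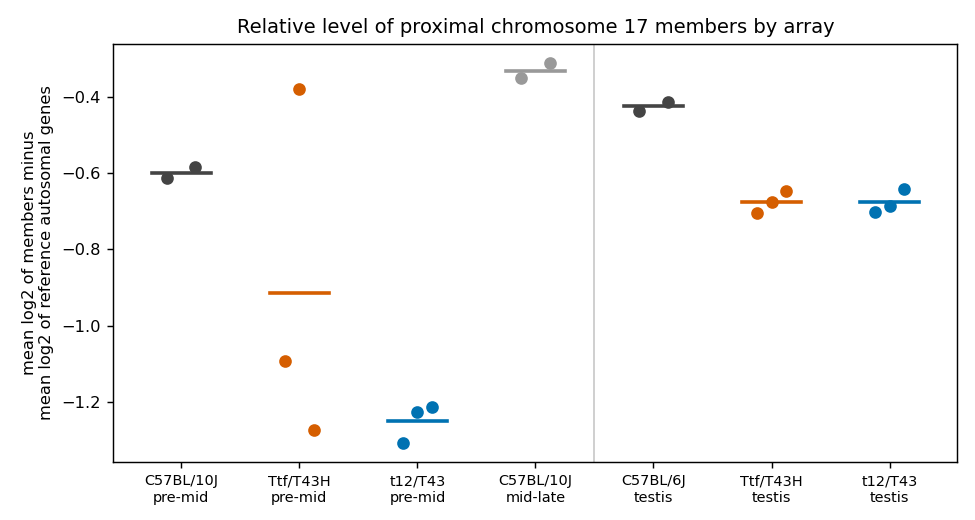
Relative level of the 128 members in each array (y axis: mean log2 value of members minus mean log2 value of reference autosomal genes; x axis: the 7 groups, sorted cells to the left of the grey line and testes to the right; points are arrays and bars group means). The t12 pre-mid arrays sit near -1.25, below C57BL/10J near -0.60, the Ttf pre-mid arrays spread from -1.27 to -0.38, and both carrier testes sit near -0.68 against -0.43 in C57BL/6J.

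The members were then cut, in order of their starts, into 6 blocks of 21 or 22 genes: Scaf8 to Tbp, Pdcd2 to Eci1, E4f1 to Clcn7, BC003965 to Rab40c, Pigq to Nudt3 and Ilrun to Cmtr1. In pre-mid-pachytene cells the third block had a relative level of 0.26 ± 0.01 (SD, n = 2) in C57BL/10J, -0.21 ± 0.45 (SD, n = 3) in Ttf and -0.53 ± 0.08 (SD, n = 3) in t12 carriers. In the fifth block the values were -0.28 ± 0.08 (SD, n = 2), -0.36 ± 0.55 (SD, n = 3) and -0.68 ± 0.11 (SD, n = 3). In all 6 blocks the 3 t12 arrays lay below both C57BL/10J arrays, and the deficit of the t12 mean was largest in the second block at -0.55 ± 0.08 (SD, n = 2) against -1.37 ± 0.09 (SD, n = 3) and smallest in the fifth. In the testes the fourth block differed most, at -1.20 ± 0.01 (SD, n = 2) in C57BL/6J, -1.56 ± 0.07 (SD, n = 3) in Ttf and -1.69 ± 0.08 (SD, n = 3) in t12 males. The part of 17 from 30 to 40 Mb, with 96 genes of like level, moved much as the members did in pre-mid-pachytene cells, from 0.02 ± 0.03 (SD, n = 2) in C57BL/10J to -0.66 ± 0.04 (SD, n = 3) in t12 carriers. Beyond 40 Mb the level was -0.03 ± 0.02 (SD, n = 2) and -0.27 ± 0.01 (SD, n = 3), and on chromosome 16 it was -0.13 ± 0.02 (SD, n = 2) and -0.32 ± 0.07 (SD, n = 3). These regions are set beside the members as values, and the difference between regions was not tested.

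The normal course of the members through pachytene was read from mid-late minus pre-mid-pachytene cells of C57BL/10J. Of 124 members tested with limma, 37 were higher and 36 lower in mid-late cells at an adjusted p under 0.05, which is 29.8% and 29% of those tested, beside 26.2% higher and 30.3% lower over all 9666 genes tested. Genes of early meiotic prophase were among those that fell. Prdm9, the histone methyltransferase that places recombination hotspots, read 7.31 and 7.43 in pre-mid and 2.31 and 3.41 in mid-late cells, a fall of 4.52 log2 units (adjusted p = 0.0016, limma). Meiob, a single-strand DNA binding protein of meiotic recombination, went from 13.04 and 12.95 to 7.65 and 8.0, a change of -5.17 ± 0.47 (SE, adjusted p = 2.8e-05). Igf2r, the imprinted receptor that clears IGF2, went from 6.78 and 6.84 to 2.48 and 2.27. For these 3 genes both mid-late arrays lay far below both pre-mid arrays, and Igf2r ended near the floor of the values.

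Of 6 genes of the testis and germ cell list, 3 rose (Smoc2, Cacna1h and Slc26a8) and 2 fell, Meiob and Armc12, a protein of the sperm mitochondrial sheath (-1.71 ± 0.56, SE, adjusted p = 0.028, limma). Fahd1 read 2.31 and 2.33 in pre-mid cells and 6.69 and 7.29 in mid-late cells, a change of 4.67 ± 0.24 (SE, adjusted p = 1.5e-06, limma). Hagh, which starts on the other side of the stretch printed above, was already at 12.65 and 12.72 in pre-mid cells and reached 14.22 and 14.47, a change of 1.66 ± 0.26 (SE, adjusted p = 0.00067). Both neighbours rose, Fahd1 from values near the floor. Cacna1h, a T-type calcium channel subunit, rose from 5.18 and 5.24 to 11.66 and 11.54, and Amdhd2, a deacetylase of N-acetylglucosamine phosphate, from 3.75 and 3.55 to 9.26 and 9.23. Slc26a8, an anion transporter of sperm, rose from 5.28 and 5.31 to 9.33 and 9.71. Of 21 tested genes of mitochondria and metabolism, 9 rose (Serac1, Amdhd2, Pgp, Hagh, Fahd1, Nubp2, Ciao3, Haghl and Jmjd8) and 3 fell (Pigq, Cuta and Mtch1). Of 14 tested genes of signalling and growth control none rose and 6 fell (Igf2r, Afdn, Ppp2r1a, Pkd1, Mapk8ip3 and Fkbp5). Of 23 tested genes of transcription, chromatin and RNA processing, 6 rose, Tbp and Phf10 among them, and 5 fell. Whether any of these lists differs from all genes tested, at 26.2% higher and 30.3% lower, was not tested.

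The members' median change was -0.27 log2 units, beside -0.11 over all genes tested. The member level, which is relative to the reference genes, was 0.27 higher in mid-late cells. The members' own mean log2 value was 7.80 and 7.87 in pre-mid arrays and 7.71 and 7.82 in mid-late arrays. That of the reference genes fell too, from 8.414 and 8.455 to 8.066 and 8.129. Over members with a median of at least 6 the difference in level was -0.11. Other cell types moved between the stages too. Sertoli markers summed to 8.59 to 8.93 in mid-late arrays against 13.81 to 13.84 in pre-mid arrays, and of 8 spermatogonial markers on the array 7, Kit and Stra8 included, were below 4 in mid-late arrays against 2 in pre-mid arrays. Spermatid markers summed to 13.50 to 13.95 in mid-late arrays against 15.70 to 16.28 in pre-mid arrays, and Leydig markers to 5.75 to 6.47 against 6.81 to 9.20. The actin control probes differed between the 3′ and 5′ ends by 3.38 to 3.51 log2 units in mid-late and 2.49 to 2.51 in pre-mid arrays. The Gapdh probes differed by 2.51 to 3.39 in mid-late and 2.86 to 2.93 in pre-mid arrays, with overlap. The part of all these differences in the changes was not tested.

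**Figure D2:**
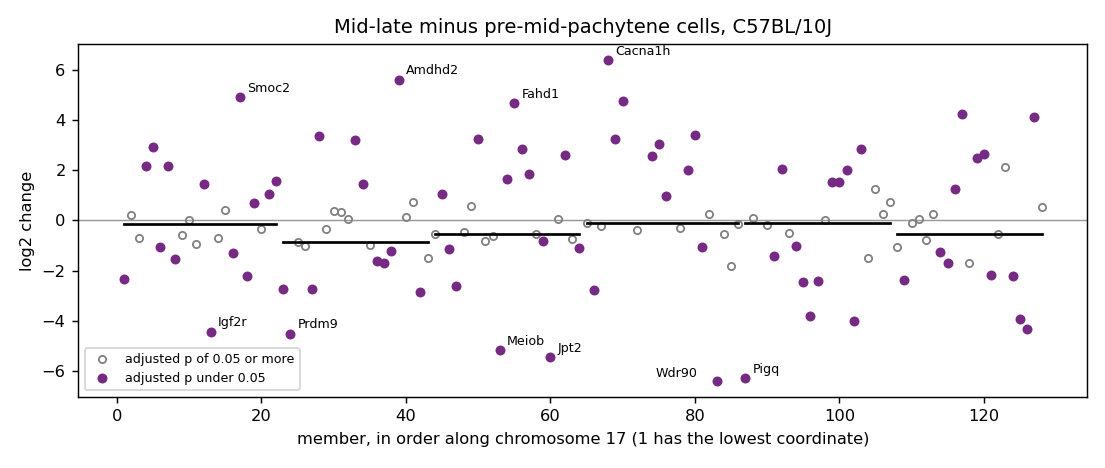
Change of each tested member from pre-mid to mid-late-pachytene cells of C57BL/10J (y axis: log2 change; x axis: members in order along chromosome 17; filled points passed an adjusted p under 0.05, open points did not, and black lines are block medians). Rises and falls that passed lie in all 6 blocks, the highest rise (Cacna1h, 6.39) and the deepest fall (Wdr90, -6.39) both in the fourth block, with block medians between -0.85 and -0.09.

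Ttf carriers were set against C57BL/10J in pre-mid-pachytene cells to ask which members are lower with the translocation and the Ttf chromosome. Of 124 members tested, 10 were lower and none higher at an adjusted p under 0.05 (limma), beside 1.47% lower and 0.59% higher over all 9666 genes. An unadjusted p under 0.05 was found for 33 of the 124 members and for 1731 of the 9666 genes. The members' median change was -0.21, beside 0.01 over all genes. In order along the chromosome the 10 were Thoc6, Prss41, Kctd5, Pdpk1, Hagh, Nubp2, Spsb3, Rhot2, Pgap6 and Tmem217. Hagh, Fahd1, Nubp2 and Spsb3 follow one another in the order of the members, and the longer Hagh model spans Fahd1.

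Hagh read 12.65 and 12.72 in the controls and 10.87, 10.88 and 10.91 in the Ttf arrays. The groups lay far apart, with a change of -1.80 ± 0.24 (SE, adjusted p = 0.012, limma), which is 3.48-fold lower. Spsb3, a SOCS-box adaptor of ubiquitin ligases, read 9.74 and 9.82 against 8.02, 7.74 and 8.24. Nubp2, a factor of iron-sulphur cluster assembly, read 11.17 and 11.08 against 9.58, 9.89 and 10.07. Neither gene's groups overlapped, and the changes were -1.78 ± 0.23 (SE, adjusted p = 0.011) and -1.28 ± 0.23 (SE, adjusted p = 0.035). Fahd1 stayed at its floor in every pre-mid array, between 2.27 and 2.33. Thoc6, a subunit of the THO complex of mRNA export, read 8.61 and 8.99 in controls and 6.75, 7.10 and 7.49 in Ttf arrays. Prss41, a serine protease of the testis, had the largest change among the 10, -2.0 ± 0.37 (SE, adjusted p = 0.037). It fell from pre-mid to mid-late C57BL/10J cells as well, and the sorts differed in spermatid markers as given above.

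By role, the lower genes were Hagh, Nubp2 and Rhot2, the last a GTPase of mitochondrial transport, among 21 genes of mitochondria and metabolism, Thoc6 among 23 of transcription, chromatin and RNA processing, Spsb3 among 11 of DNA repair, cell cycle and ubiquitin, and Pgap6 among 11 of membrane traffic. None of 14 signalling genes passed, and their median change was 0.38. Of 39 tested members in no role list, 4 were lower (Prss41, Kctd5, Pdpk1 and Tmem217). Tbp, at 11.14, 10.66 and 11.42 in Ttf arrays against 11.59 and 11.64, did not pass (-0.54 ± 0.26, SE, adjusted p = 0.33). The count of 10 was 0 without the first Ttf array or without either C57BL/10J array, 3 without the third Ttf array, and 19 without the second array of Ttf and the third of t12, which an earlier analysis of these data found to stand apart. It was 32, with 28 lower, when all 18 arrays shared 1 estimate of the spread. Over the members the third t12 array did not stand apart. It correlated with the other t12 arrays at r = 0.985 and 0.959, and those correlated at 0.965. Here and below, no share over all genes was computed for such alternatives or for calls kept with arrays left out.

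More members, and more genes over the whole array, were called lower in t12 than in Ttf carriers. Against C57BL/10J pre-mid-pachytene cells, 25 of 124 members were lower (20.2%) and none higher (limma, adjusted p under 0.05), beside 5.83% lower and 3.24% higher over all genes. An unadjusted p under 0.05 was found for 45 of the 124 members and for 2133 of the 9666 genes tested. The members' median change was -0.51, beside 0.06 over all genes and -0.56 over the 95 genes tested from 30 to 40 Mb, of which 21 were lower. Beyond 40 Mb 5.42% and on chromosome 16 4.26% of the genes tested were lower. In order, the blocks held 4, 5, 7, 5, 2 and 2 lower members.

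The widest gap was that of Armc12, which read 8.95 and 8.05 in controls and 4.61, 4.76 and 3.43 in t12 arrays, a change of -4.23 ± 0.51 (SE, adjusted p = 0.002, limma). The Ttf arrays lay between, at 5.98, 6.33 and 6.11, and spermatid markers had the same order over these groups, as given above. Tekt4, a tektin of the sperm flagellum, read 7.57 and 7.29 in controls and 5.00, 5.68 and 4.67 in t12 arrays. Tmem217 read 7.12 and 6.88 against 4.16, 5.06 and 4.15. In all 3 genes the t12 arrays lay below both controls with no overlap, and the part of the spermatid markers in these changes was not tested.

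Hagh read 10.28, 10.97 and 10.53 in t12 arrays, a change of -2.09 ± 0.24 (SE, adjusted p = 0.0017, limma), which is 4.27-fold lower. Nubp2 read 9.28, 9.20 and 9.55 and Spsb3 8.16, 8.08 and 7.83, changes of -1.78 ± 0.23 (SE) and -1.76 ± 0.23 (SE). Tbp read 10.15, 10.57 and 10.50, below both controls at 11.59 and 11.64, with a change of -1.20 ± 0.26 (SE, adjusted p = 0.025). Phf10, a subunit of a SWI/SNF chromatin remodeller, read 10.84, 10.87 and 10.83 against 12.06 and 12.22, a change of -1.29 ± 0.18 (SE, adjusted p = 0.0038). Telo2 read 7.18, 7.62 and 7.44 against 8.73 and 8.63, a change of -1.26 ± 0.31 (SE, adjusted p = 0.037). Pkmyt1, an inhibitory kinase of CDK1, and Ift140, a subunit of the retrograde intraflagellar transport complex, changed by -1.35 ± 0.34 (SE) and -1.87 ± 0.34 (SE).

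By role, 6 of 21 genes of mitochondria and metabolism were lower (Pgp, Hagh, Nubp2, Haghl, Rhot2 and Nudt3), 5 of 23 of transcription, chromatin and RNA processing (Phf10, Tbp, Thoc6, Tbl3 and Tsr3), 3 of 11 of DNA repair, cell cycle and ubiquitin (Pkmyt1, Spsb3 and Telo2), 2 of 11 of membrane traffic (Ift140 and Pgap6) and 1 of 6 of testis and germ cell (Armc12). None of 14 signalling genes passed, with a median change of 0.37. Of 39 tested members in no role list, 8 were lower. The count of 25 was 4 without the first C57BL/10J array and 6 without the second. It was 46, with 43 lower, with all 18 arrays in 1 estimate of the spread. No share over all genes was computed for these counts or for the members that stayed called whichever array was left out. The 4 members called whichever array was left out were Hagh, Armc12, Tmem217 and Spsb3.

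The direct comparison of t12 with Ttf carriers in pre-mid-pachytene cells, in which t12 takes the place of Ttf, called no member. Spermatid markers also differed between these groups, as given above. None of 124 passed (limma), beside 0.693% lower and 0.0621% higher over all genes. An unadjusted p under 0.05 was found for 18 of the 124 members and for 987 of the 9666 genes tested. The members' median difference was -0.23, beside 0.05 over all genes and -0.21 from 30 to 40 Mb. Ift140 read 9.32, 10.27 and 9.48 in t12 arrays and 10.83, 11.57 and 10.90 in Ttf arrays, with no overlap and a difference of -1.41 ± 0.30 (SE, adjusted p = 0.09). Armc12 differed by -1.88 ± 0.46 (SE, adjusted p = 0.13) and Tbp by -0.66 ± 0.24 (SE, adjusted p = 0.35), both without overlap. Hagh overlapped between the carriers. The count was 3 without the second t12 array and 10, all lower in t12, with all 18 arrays in 1 estimate of the spread. It was 1 when the genes left out by name were put back.

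**Figure D3:**
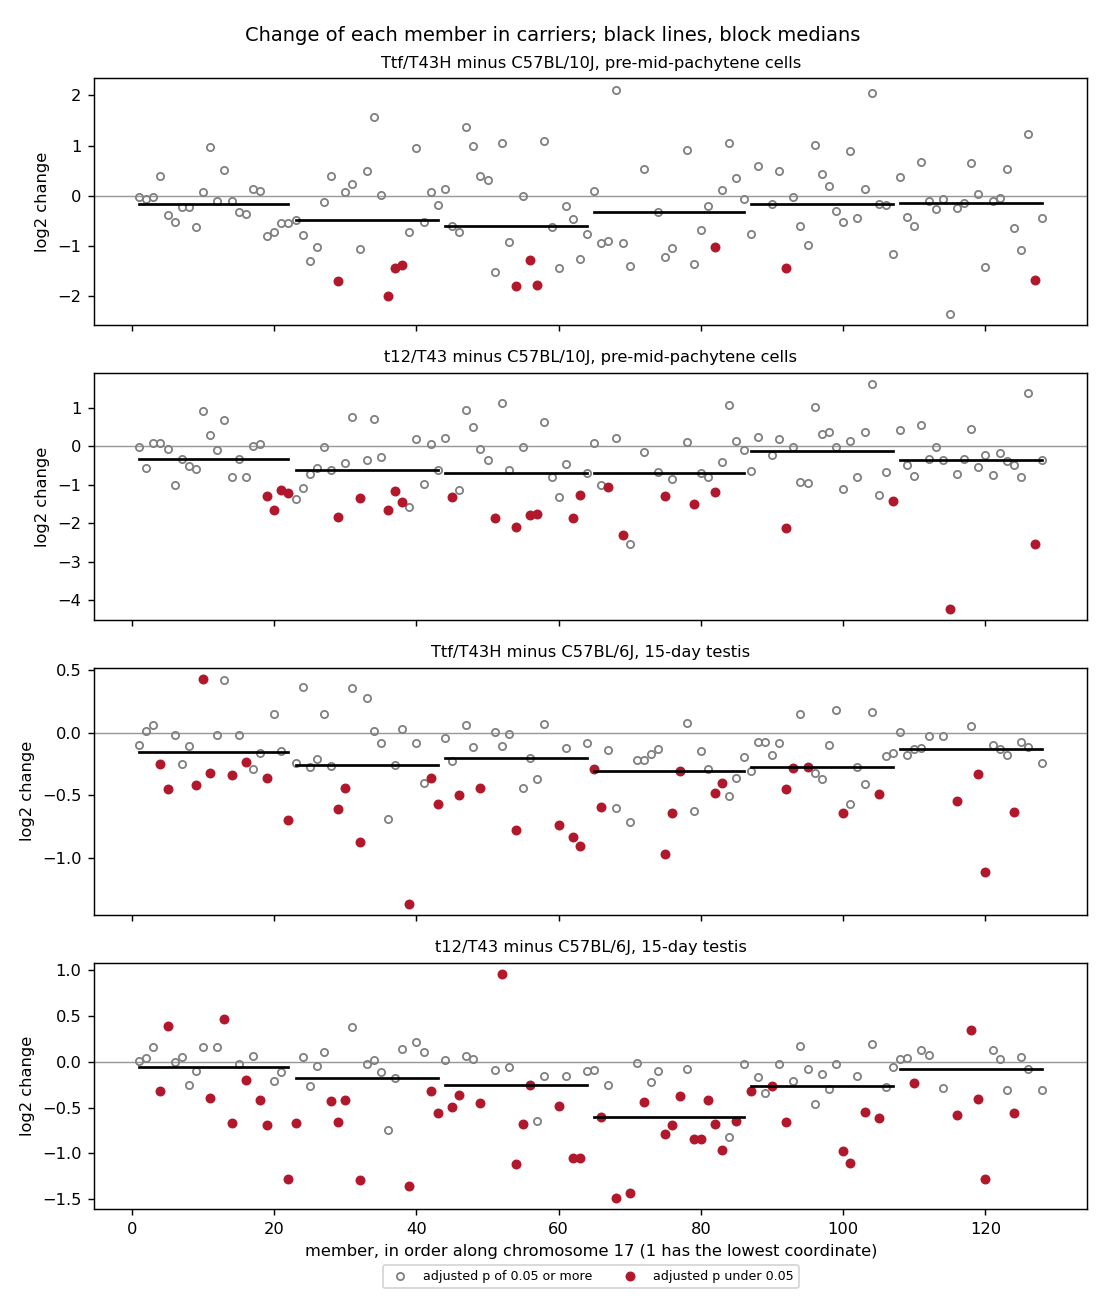
Log2 change of each tested member in carriers against their control, for Ttf and t12 carriers in pre-mid-pachytene cells (upper panels, control C57BL/10J) and in 15-day testes (lower panels, control C57BL/6J); the x axis gives the members in order along chromosome 17, filled points passed an adjusted p under 0.05, and black lines are block medians. The lower calls are spread over the 6 blocks in the t12 panels, with 7 of 25 in the third block of sorted cells and 13 of 49 in the fourth block of the testis, and the panels differ in the range of the y axis.

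In 15-day testes of Ttf carriers, 36 of 121 members were lower than in C57BL/6J (29.8%) and 1 was higher, beside 4.7% lower and 3.86% higher over all 9134 genes tested (limma, adjusted p under 0.05). The members' median change was -0.22, beside 0.00 over all genes. From 30 to 40 Mb 26.4% of 91 genes were lower, beyond 40 Mb 7.93% and on chromosome 16 6.67%. The extreme changes were smaller than in sorted cells, while the members' median change was alike at -0.22 and -0.21. Arrays lay closer together, with a median SD between arrays of 0.06 in C57BL/6J and 0.09 in each carrier group, against 0.48 among the Ttf pre-mid arrays.

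Telo2 read 7.16 and 7.15 in C57BL/6J and 6.28, 6.21 and 6.26 in Ttf testes, a change of -0.90 ± 0.04 (SE, adjusted p = 7.4e-05, limma). Hagh read 11.10 and 11.03 against 10.30, 10.33 and 10.22, a change of -0.78 ± 0.06 (SE, adjusted p = 0.00042). Tbp read 9.92 and 9.83 against 9.28, 9.08 and 9.18, a change of -0.70 ± 0.07 (SE, adjusted p = 0.0026). For these 3 genes every Ttf testis lay below both controls. Amdhd2 had the largest change of the 36, -1.37 ± 0.19 (SE, adjusted p = 0.0076), and Haghl, a relative of Hagh, changed by -0.97 ± 0.10 (SE, adjusted p = 0.0024). Agpat4, an acyltransferase of phospholipid synthesis, was the single higher member, at 10.07, 10.23 and 10.41 against 9.73 and 9.88. Nubp2 (-0.20 ± 0.07, SE, adjusted p = 0.11) and Spsb3 (-0.37 ± 0.22, SE, adjusted p = 0.35), lower in sorted cells, did not pass here.

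By role, 8 of 23 genes of transcription, chromatin and RNA processing were lower, 7 of 22 of mitochondria and metabolism (with Agpat4 higher), 5 of 11 of membrane traffic, 3 of 11 of DNA repair, cell cycle and ubiquitin, 3 of 13 of signalling (Map3k4, Afdn and Axin1) and 1 of 4 of testis and germ cell (Pnldc1, a nuclease that trims piRNAs). Of 38 tested members in no role list, 9 were lower. The count of 37 was 12 or 13 without 1 of the C57BL/6J arrays, 19 without the second Ttf array and 24 without the first. It was 0 with all 18 arrays in 1 estimate of the spread, which takes in the wider sorted arrays. The 10 called whichever array was left out were Ift140, Hagh, Bnip5, Srpk1, Tbp, Pkmyt1, Hcfc1r1, Ppil1, Haghl and Telo2.

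In 15-day testes of t12 carriers, 49 of 121 members were lower than in C57BL/6J (40.5%) and 4 higher, beside 11.3% lower and 10.5% higher over all genes tested (limma, adjusted p under 0.05). The members' median change was -0.23, beside 0.02 over all genes. From 30 to 40 Mb 40.7% of 91 genes were lower, beyond 40 Mb 16.5% and on chromosome 16 17.4%. The fourth block, BC003965 to Rab40c, held 13 of the lower members and had a median change of -0.60, and the first block had a median of -0.06.

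Cacna1h read 5.39 and 5.81 in C57BL/6J and 4.04, 3.95 and 4.34 in t12 testes, a change of -1.49 ± 0.15 (SE, adjusted p = 0.0013, limma). Tbp read 8.67, 8.53 and 8.60 in t12 testes, a change of -1.28 ± 0.07 (SE, adjusted p = 0.00011), which is 2.42-fold lower. Hagh read 10.00, 9.90 and 9.96, a change of -1.11 ± 0.06 (SE, adjusted p = 5.8e-05), and Telo2 read 6.11, 6.09 and 6.10, a change of -1.05 ± 0.04 (SE, adjusted p = 2.7e-05). No t12 testis overlapped a control for these 4 genes. Fahd1, expressed in the testis, was lower with Hagh, at 6.26, 6.63 and 6.52 against 7.28 and 7.02. Pkmyt1 changed by -1.29 ± 0.10 (SE) and Lmf1, a chaperone of lipases, by -1.44 ± 0.21 (SE). Spsb3 (-0.65 ± 0.22, SE, adjusted p = 0.076) did not pass.

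Of 22 genes of mitochondria and metabolism 13 were lower (Amdhd2, Eci1, Pgp, Gfer, Hagh, Fahd1, Nubp2, Haghl, Jmjd8, Rhot2, Pigq, Nme4 and Uqcc2) and 1, Msrb1, was higher. Of 23 of transcription, chromatin and RNA processing 10 were lower, of 11 of DNA repair, cell cycle and ubiquitin 5, of 11 of membrane traffic 5 (with Zdhhc14 higher) and of 4 of testis and germ cell 2. Of 13 signalling genes 2 were lower (Map3k4 and Afdn) and 2 higher (Igf2r and Mapk14). Of 38 tested members in no role list, 12 were lower. Msrb1, a reductase of oxidised methionine, read 8.49, 8.38 and 8.66 in t12 testes against 7.44 and 7.65, a change of 0.96 ± 0.13 (SE, adjusted p = 0.0038). Zdhhc14, a palmitoyltransferase, read 9.49, 9.49 and 9.60 against 9.24 and 9.03. The count of 53 was 30 without the first and 34 without the second C57BL/6J array, and 6 with all 18 arrays in 1 estimate of the spread. Of the 53, 28 were called whichever array was left out.

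**Figure D4:**
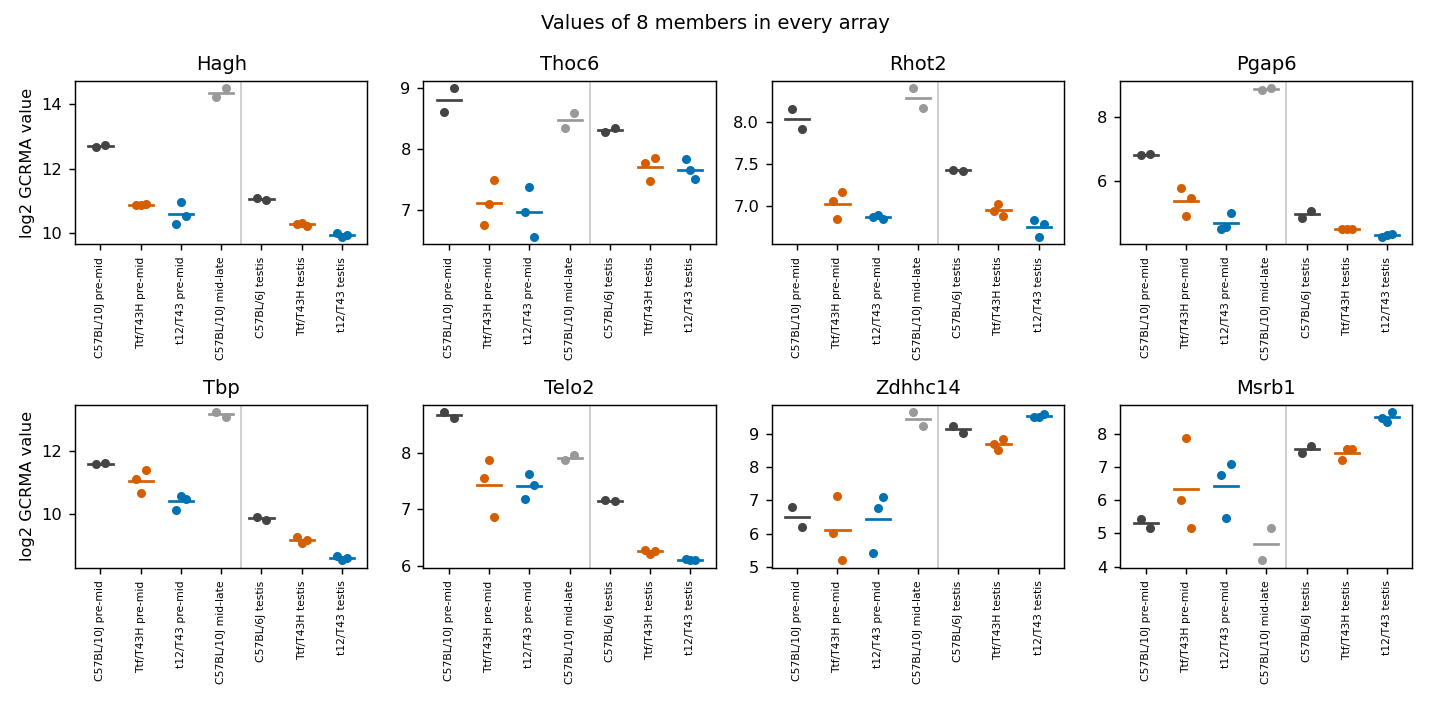
Log2 GCRMA values of 8 members in every array (y axis, a scale of its own in each panel; x axis, the 7 groups, with sorted cells left of the grey line; points are arrays and bars group means). Hagh, Thoc6, Rhot2 and Pgap6 lie lower in both carriers than in the control on either side of the line, Msrb1 is high in t12 testes (8.38 to 8.66) and Zdhhc14 is lower in Ttf than in t12 testes.

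Between the carriers in the testis, where both lines share the strain background, 9 of 121 members were lower in t12 and 4 higher, beside 3.92% lower and 1.07% higher over all genes tested (limma, adjusted p under 0.05). The members' median difference was -0.04, beside 0.02 over all genes. Tbp differed by -0.58 ± 0.07 (SE, adjusted p = 0.018), Cacna1h by -0.89 ± 0.14 (SE, adjusted p = 0.03) and Hagh by -0.33 ± 0.05 (SE, adjusted p = 0.03). For each of them all 3 t12 testes lay below all 3 Ttf testes, with the values given above. The other lower members were Jmjd8, Wdr90, Pdcd2, Pkmyt1, Pnldc1 and Phf10. Msrb1 was higher in t12 by 1.07 ± 0.12 (SE, adjusted p = 0.017), from 7.22, 7.54 and 7.56 in Ttf testes. Zdhhc14 was higher by 0.84 ± 0.09 (SE, adjusted p = 0.017), from 8.70, 8.52 and 8.83, and was lower in Ttf testes than in C57BL/6J (-0.45 ± 0.10, SE, adjusted p = 0.042). Ccnf, a cyclin that serves a ubiquitin ligase, and Cep43, a centrosomal protein, were higher by 0.51 ± 0.10 (SE) and 0.32 ± 0.05 (SE).

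These 13 calls depended on single arrays. The count was 0 without the second Ttf or the second t12 testis, 1 without the third t12 testis, 2 without the first Ttf testis, 8 without the first t12 testis and 0 with all 18 arrays in 1 estimate of the spread. It was 8 with no filter on low values and 21 when the genes left out by name were put back.

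The sorted and testis comparisons share no array, so their lower members can be set against each other. Of 117 members tested in both, Ttf carriers had 9 lower in sorted cells and 35 in the testis, and 4 were lower in both (44.4% of the first list and 11.4% of the second): Thoc6, Hagh, Rhot2 and Pgap6. On other autosomes, 45 of 7220 genes were lower in sorted cells of Ttf carriers, 281 in the testis and 7 in both (15.6% and 2.49%). The t12 carriers had 22 and 48, and 13 were lower in both (59.1% and 27.1%): Phf10, Tbp, Thoc6, Pkmyt1, Pgp, Hagh, Nubp2, Ift140, Telo2, Haghl, Wdr24, Rhot2 and Pgap6. On other autosomes, 148 were lower in sorted cells of t12 carriers, 804 in the testis and 61 in both (41.2% and 7.59%), so shared lower genes were found elsewhere too. The difference in overlap between the members and other autosomes was not tested. Across the 117 genes, which share arrays and are not independent, the log2 changes of the 2 tissues correlated at r = 0.377 for Ttf and 0.467 for t12 carriers, beside 0.147 and 0.328 across the 7220 genes of other autosomes. For t12 minus Ttf the correlation was 0.369, beside 0.304, and no member was called in both. The controls differ in strain between the tissues, and spermatid markers, far apart among the sorted groups, summed to 5.89 to 7.85 over all testis arrays, with at least 11 of the 12 below 4 in every testis group.

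Whether the t12 minus Ttf difference itself changed between sorted cells and testis was tested as an interaction over all 18 arrays. None of 128 members passed (limma), beside 0.668% lower and 0.0659% higher over all 10623 genes tested. An unadjusted p under 0.05 was found for 13 of the 128 members and for 812 of the 10623 genes. The median was -0.25, beside 0.04 over all genes. The count was 4 without the second t12 sorted array, 2 without the second Ttf sorted array and 1 without the first t12 sorted array. It was 4 without the second Ttf and the third t12 sorted arrays together.

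**Figure D5:**
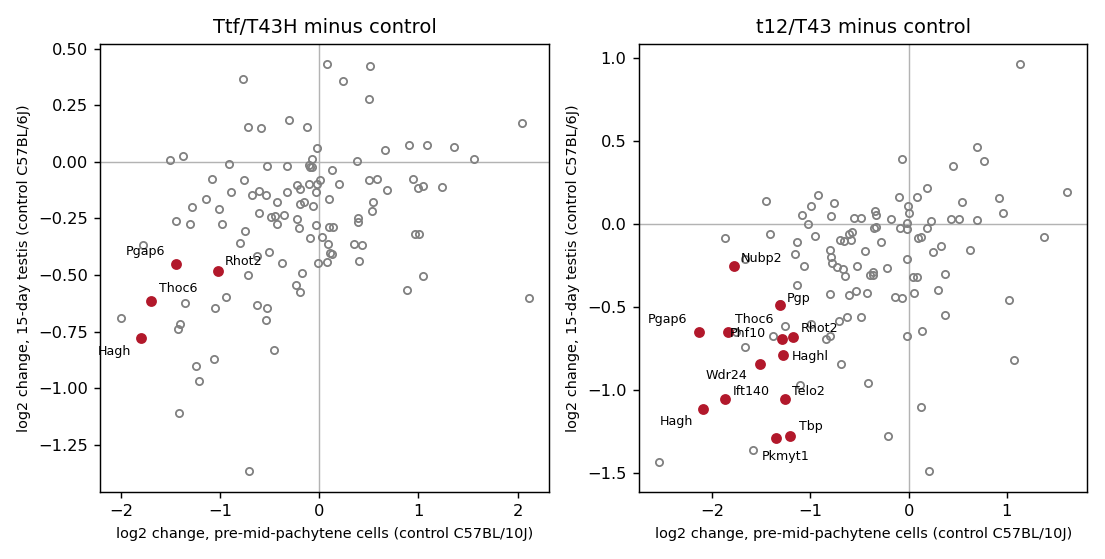
Log2 change of each member against control in pre-mid-pachytene cells (x axis, control C57BL/10J) and in 15-day testis (y axis, control C57BL/6J), for Ttf carriers (left) and t12 carriers (right); each point is a member tested in both, and filled, named points were lower in both at an adjusted p under 0.05. The 4 named Ttf members and 13 named t12 members lie in the lower left of each panel.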

How the data were processed

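Affymetrix arrays of 18 mouse samples were analysed from the deposited table of log2 values, made by the authors with GCRMA per the submitters' processing notes; its version, and whether all arrays were normalized together, are not given in the sources used here. Arrays give no counts, so their number limits the precision. Probe sets were named through the platform table (16539 probe sets, 759 without 1 symbol) and 15752 of 15780 named genes were placed on GRCm38.p6 through RefSeq. The genome build of the deposited table is not given, so gene coordinates were used only to choose and order genes.

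limma (version 3.58.1, R 4.3.3) was fitted with group means, no covariate, separately to the 10 sorted and 8 testis arrays and, for the interaction, to all 18. Genes needed log2 4 in at least 2 arrays of the fit; p-values were adjusted by Benjamini-Hochberg over all genes tested, and called under 0.05. The fit was tested on simulated data. The member level was compared by exact permutation over arrays, with p adjusted over 7 tests. Named genes were taken by a rule of size (the largest called changes in each direction, role list examples and block ends), with genes called in both tissues and a few neighbours added after their values were seen. Alternatives were another filter, normalization, centring, variance model, replicate block, fit over all arrays, level limit, reference and each array left out. The members, role lists and marker lists were chosen with earlier results of these data known, so the counts are no independent evidence for any of those results.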

Additional observations from a re-analysis of the deposited data

Results flagged for a closer look

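In 4 genes that passed the test in 1 tissue, every carrier array lay on 1 side of its control in sorted cells and on the other side in the testis. Whether the effects differ was not tested. All 128 members were searched, for each carrier line against control and for t12 against Ttf. No share over all genes was computed, so the count of 4 has no value of the whole array beside it. Gfer, a sulfhydryl oxidase of mitochondria, was 0.40 log2 units above C57BL/10J in Ttf pre-mid-pachytene cells (adjusted p = 0.59, limma) and -0.44 from C57BL/6J in Ttf testes (adjusted p = 0.0066). In the sorted cells the Ttf arrays read 8.56, 9.62 and 8.55 against 8.54 and 8.48, with the high value in the second Ttf array, which stood apart. Map3k4, a stress-activated kinase needed for testis determination, differed by 0.97 in the same sorted cells (adjusted p = 0.37) and by -0.32 in Ttf testes (adjusted p = 0.049); its sorted Ttf arrays read 8.09, 9.71 and 7.81 against 7.34 and 7.80.

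In t12 carriers Pdpk1, a kinase that activates AKT, differed by -1.46 in sorted cells (adjusted p = 0.011, limma) and by 0.14 in the testis (adjusted p = 0.23). Zbtb9, a zinc finger protein, differed by 0.37 in sorted cells (adjusted p = 0.45) and by -0.55 in the testis (adjusted p = 0.01). The controls of the tissues are of different strains.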

How the results depend on the processing

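The counts of called members moved with the arrays that shared the estimate of the spread and with single arrays left out. No share over all genes was computed under these alternatives, so their counts have no value of the whole array beside them. With all 18 arrays in 1 fit they were, for sorted cells, 10 (t12 against Ttf), 32 (Ttf against C57BL/10J) and 46 (t12 against C57BL/10J), and for testes 0 (t12 against Ttf), 0 (Ttf against C57BL/6J) and 6 (t12 against C57BL/6J). Nothing in the labels says that a replicate number marks a shared litter, batch or day. After group means were removed, same-numbered arrays of sorted cells correlated at -0.347 to 0.25 over 13 pairs, with a median of -0.1. Those of testes correlated at -0.074 to 0.677 over 7 pairs, with a median of 0.256. Whether the numbers mark something shared in the testes was not tested. With a replicate block the counts were 0 and 13 for Ttf and t12 against C57BL/10J, 31 for t12 against Ttf testes and 58 for Ttf testes against C57BL/6J. Putting back the genes left out by name gave 1 (t12 against Ttf, sorted), 21 (the same in testes) and 1 (interaction). Without the second Ttf and the third t12 sorted arrays together, the counts were 19 for Ttf against C57BL/10J and 4 for the interaction. With no filter the count was 8 for t12 against Ttf testes.

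Leaving out 1 array at a time, the counts ranged from 0 to 3, 0 to 14 and 4 to 24 for t12 against Ttf, Ttf against C57BL/10J and t12 against C57BL/10J in sorted cells, from 52 to 58 for mid-late against pre-mid cells, from 0 to 15, 12 to 33 and 30 to 55 for the matching testis comparisons, and from 0 to 4 for the interaction. The differences in member level ranged from -0.51 to -0.07, -0.58 to -0.14, -0.67 to -0.62 and 0.25 to 0.29 in sorted cells and from -0.0186 to 0.0127, -0.27 to -0.24 and -0.27 to -0.24 in testes. The t12 minus Ttf testis level, -0.0014, changed sign without the third Ttf (0.0127), the first t12 (0.0110) or the second t12 testis (0.0035), and with members of a median of at least 6 (0.0029). With those members the mid-late minus pre-mid level was -0.1101. For 130 called changes of named genes, 1242 alternative values kept the direction and the call, and 346, from 92 of the changes, kept the direction and lost the call. None reversed, but many of these genes were named for large changes without overlap. The filter, the variance model and the fit over all arrays also leave the difference of means as it is. A reversal was thus hardly possible, and its absence says little. For 12 changes quoted as not called, 149 alternative values stayed so and 7 passed, with none reversed. Quantile normalization, centring on other autosomes, and limma's trend and robust options kept every count within 1.5 times. Dim genes near the floor, Fahd1 in pre-mid cells among them, have only a bound.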
